A study of Mus musculus with 41 samples.

Results

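The genes described here encode the subunits of the mitochondrial respiratory chain and of the ATP synthase in mouse intestinal cells. Of 23366 gene symbols in the deposited counts, 87 were taken by name: symbols that start with Ndufa, Ndufb, Ndufc, Ndufs, Ndufv, Uqcr, Cox4i, Cox5, Cox6, Cox7, Cox8, Sdha to Sdhd, or Atp5, leaving out the Ndufaf assembly factors. They comprised 36 genes of complex I, 6 of complex II, 8 of complex III, 20 of complex IV and 17 of the ATP synthase. The naming rule also takes in 4 genes that are not subunits: Sdhaf1 and Sdhaf2, which help to assemble complex II, and Atp5s and Atp5sl.

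Complexes I and II pass electrons from NADH and succinate to ubiquinone, complex III passes them on to cytochrome c, and complex IV hands them to oxygen. The protons pumped on the way drive the ATP synthase. In the intestine, oxidative phosphorylation is known to be active in crypt base stem cells and in enterocytes, and several complex IV subunits exist as paralogues that are restricted to muscle, lung or testis. The mitochondrially encoded subunits are not analysed here, because none of their 13 symbols matched a row.

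The 41 libraries fell into 15 groups. At embryonic day 11.5 (E11.5) there were Id2KO Lgr5-EGFP+EpCAM+ cells, Id2KO and wild-type EpCAM+ epithelial cells, and Id2KO and wild-type EpCAM-negative mesenchyme (n = 3 each). At E13.5 there were Lgr5-EGFP+EpCAM+ and EpCAM+ epithelial cells (n = 4 each). Adults at postnatal day 60 gave Lgr5-EGFPhigh intestinal stem cells with no segment named (adult ISC, n = 4). They also gave Lgr5+ stem cells from the anterior, middle and posterior parts of the small intestine, labelled Id2KO or wild type, and Tomato+Lgr5+ cells from the posterior part labelled Id2KO (n = 2 each). All were small intestine of mixed C57BL/6 CD1 mice. Each library came from 250 sorted cells whose cDNA was amplified over 15 cycles, from a single embryo at E11.5 and from a pool of 6 to 12 embryos at E13.5. The labels name neither the Id2 allele nor what drives Tomato, and give no genotype for the E13.5 and adult ISC groups. The p-values measure the spread between these libraries.

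Id2, the gene deleted, was at 159 to 182 CPM (the usual scaled share of all gene counts of a library) in EpCAM+ cells of Id2KO embryos at E11.5, against 5310 to 6600 CPM in wild type. In mesenchyme it was at 114 to 172 CPM in the knockout, against 2180 to 2760 CPM without it. In the adult segments the Id2 counts went against the labels or gave no difference. Anterior libraries labelled Id2KO held 195 to 199 CPM against 64.1 to 104 CPM in wild type (log2 fold change 1.23). The posterior pair had a log2 fold change of 0.87 and the middle pair one of -0.13, which did not pass. Adult libraries are therefore called by their label only. Gene counts per library ran from 31.7 M to 38.9 M at E11.5, 30.0 M to 51.2 M at E13.5, 28.2 M to 31.1 M in adult ISC and 13.6 M to 20.3 M in the segments. Epithelial markers summed to 2970 CPM or more in all EpCAM+ and Lgr5+ groups and to 68.0 to 84.5 CPM in wild-type mesenchyme. Erythroid markers made up 2.48 to 5.97% of counts in Id2KO mesenchyme and 22.2 to 26.9% in wild-type mesenchyme, but at most 0.0172% elsewhere.

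Promoters of 72 of the 87 genes were found by symbol in RefSeq (mouse assembly GRCm38.p6, 250 bases before to 50 after the start; the counts were made on mm9, so the match was by name). Letters of sites that are known for nuclear control of respiratory genes were searched on both strands. The NRF1-type motif, GCGCA and GCGC with 1 free base between them, was in 23.6% of these promoters and in 5.19% of the promoters of all 27025 genes. The ETS-type motif CCGGAAG was in 25.0% against 9.93%, the YY1-type AAGATGGC in 15.3% against 3.19%, and the ERR-type TCAAGGTCA in 2.78% against 0.466%. Among E-box letters, the kind bound by the partners that Id2 holds back, CAGCTG was in 8.33% against 18.3% and CACCTG in 19.4% against 22.6%. These are matches of letters, not evidence of binding. The following 4 promoters of genes named below show the first 3 kinds, with the NRF1-type motif, CCGGAAG and AAGATGGC in capitals on either strand. Sdha lies on the minus strand at chr13:74350191-74350490, Cox8a on the minus strand at chr19:7217567-7217866, Uqcrh on the minus strand at chr4:116075021-116075320 and Ndufa3 on the plus strand at chr7:3617123-3617422.
Sdha: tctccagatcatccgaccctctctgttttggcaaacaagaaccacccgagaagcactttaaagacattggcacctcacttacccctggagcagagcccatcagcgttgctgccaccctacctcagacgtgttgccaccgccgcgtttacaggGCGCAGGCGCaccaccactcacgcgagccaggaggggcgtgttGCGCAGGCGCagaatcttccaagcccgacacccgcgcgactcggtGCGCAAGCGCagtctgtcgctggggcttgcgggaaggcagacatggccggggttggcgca
Cox8a: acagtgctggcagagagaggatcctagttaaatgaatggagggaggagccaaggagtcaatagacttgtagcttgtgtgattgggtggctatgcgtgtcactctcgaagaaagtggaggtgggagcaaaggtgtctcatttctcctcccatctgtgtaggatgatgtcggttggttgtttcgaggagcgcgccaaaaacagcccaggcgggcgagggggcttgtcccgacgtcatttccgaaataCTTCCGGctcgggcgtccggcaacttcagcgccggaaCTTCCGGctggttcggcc
Uqcrh: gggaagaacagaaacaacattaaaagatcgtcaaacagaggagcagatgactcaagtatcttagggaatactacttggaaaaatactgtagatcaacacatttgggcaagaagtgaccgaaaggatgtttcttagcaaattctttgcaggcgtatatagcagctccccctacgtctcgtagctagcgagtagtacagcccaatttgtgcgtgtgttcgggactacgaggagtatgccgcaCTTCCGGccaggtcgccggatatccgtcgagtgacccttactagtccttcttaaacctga
Ndufa3: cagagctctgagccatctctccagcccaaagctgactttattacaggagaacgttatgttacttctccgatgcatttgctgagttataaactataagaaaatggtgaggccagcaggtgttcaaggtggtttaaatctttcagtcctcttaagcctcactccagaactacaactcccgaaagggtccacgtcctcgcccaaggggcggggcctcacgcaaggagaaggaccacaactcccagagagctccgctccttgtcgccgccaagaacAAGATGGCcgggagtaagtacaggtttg
Sdha carries NRF1-type letters, Cox8a and Uqcrh carry ETS-type letters, and Ndufa3 carries YY1-type letters after its start.

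Of the 87 genes, 80 reached 5 CPM in at least 1 library. The other 7 were Ndufs5, Cox6a2, Cox8b and Cox8c with 2 to 5 counts in the whole series, and Cox7b2, Atp5g2 and Atp5l, whose highest libraries held 3.32, 1.40 and 4.65 CPM. Low values can come from counting as well as from the cells: all 50-base windows of the Atp5g2 transcript, 84.8% of those of Atp5l and 41.2% of those of Ndufs5 also occur in other genes. In all, 20 members shared over 20% of such windows and 39 shared none. Among the genes named below, Sdhaf1, Cox7c, Atp5o, Cox5a, Cox5b and Uqcrc2 are in the first group, at 69%, 53%, 50.3%, 32%, 25.9% and 24.8%, and their counts are uncertain for that reason.

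Within each complex the counts were spread over members of very different level, given here as the mean CPM over the 15 group means, which grows with transcript length. Complex I was led by Ndufv2, an iron-sulphur subunit of its NADH-oxidising arm, at 571 CPM. Complex II was led by Sdhb, its iron-sulphur subunit, at 639 CPM and complex III by the core protein Uqcrc1 at 1127 CPM. Complex IV was led by Cox4i1, its ubiquitous subunit 4, at 975 CPM, and the ATP synthase by its catalytic beta subunit Atp5b at 3382 CPM.

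Together the 87 genes held 2.01 to 3.09% of gene counts at E11.5, 1.91 to 2.46% at E13.5, 3.30 to 3.87% in adult ISC and 2.36 to 3.15% in the adult segments. The make-up differed between the adult sets. Complex IV genes summed to 8314, 8249, 6216 and 5934 CPM in adult ISC, and to 3075, 3606, 2857 and 2979 CPM in E13.5 Lgr5+ cells. In the wild-type adult segments the same genes summed to 3563 and 1969.9 CPM anteriorly, 3022 and 2314 CPM in the middle and 3820.1 and 2595 CPM posteriorly. For complex IV, every adult ISC library therefore stood above every library of E13.5 and of the segments. ATP synthase genes behaved otherwise, with 9850.4, 9928, 9169 and 8970.2 CPM in adult ISC against 13361 and 11431 CPM in the wild-type anterior segment. In bulk libraries such as these, fewer cells of a type and less RNA per cell cannot be told apart.

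**Figure D1:**
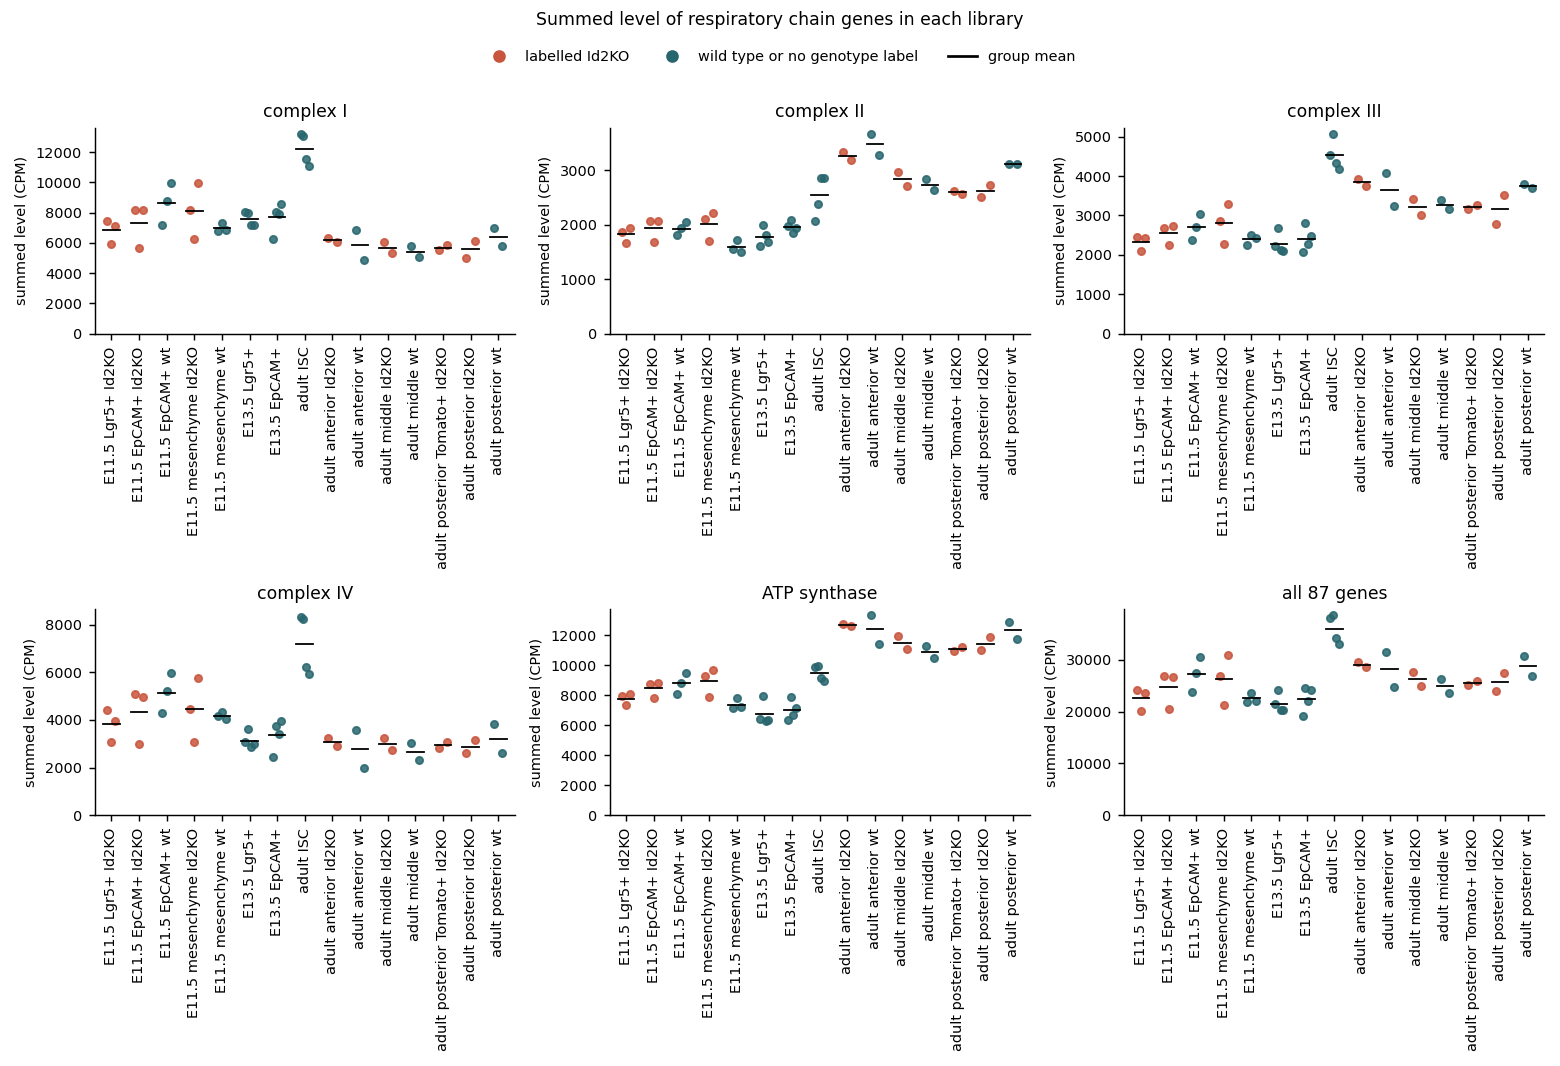
Summed level (CPM, linear axis) of the genes of each complex and of all 87 genes in every library, by group, with a line at the group mean. Adult ISC libraries have the highest group mean for complexes I, III and IV, while the segments have the highest ones for the ATP synthase.

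In adult ISC most respiratory chain genes were higher than in Lgr5+ cells of the E13.5 gut, a direction that the other adult set, described further on, did not share. Of 80 members tested, 62 were higher and 0 lower in adult ISC than in E13.5 Lgr5+ cells (edgeR quasi-likelihood test, adjusted p under 0.05), against 18.6% of all 13144 tested genes called higher and 17.3% called lower. Here 71 members had an unadjusted p under 0.05, and DESeq2 called 65 higher and 0 lower. The median log2 fold change was 0.84 over the members and 0.02 over all tested genes. Leaving out single libraries gave 52 to 65 members higher, and 1 member lower without adult ISC replicate 3. All 5 complexes moved: 27 of 35 tested genes were higher in complex I, 5 of 6 in complex II, 6 of 8 in complex III, 13 of 14 in complex IV and 11 of 17 in the ATP synthase, with median log2 fold changes of 0.77, 0.63, 0.96, 1.32 and 0.73.

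Among complex I genes, Ndufa1, a small membrane subunit needed for assembly of the complex, was at 173, 197, 146 and 134 CPM in adult ISC and 78.5, 58.9, 47.8 and 58.9 CPM in E13.5 Lgr5+ cells (log2 fold change 1.51 ± 0.20 (SE), edgeR adjusted p = 0.00012). The adult ISC values were all above the embryonic ones. Ndufv2 was at 1417, 1290.4, 1205 and 1095 CPM in adult ISC, against 631, 659, 733 and 702 CPM at E13.5 (log2 fold change 0.96 ± 0.15 (SE), edgeR adjusted p = 0.00029), again without overlap. Ndufs1, the largest iron-sulphur subunit, did not pass: it was at 153, 106, 179.9 and 201 CPM in adult ISC and 229.8, 173, 176 and 161 CPM in E13.5 Lgr5+ cells (-0.14 ± 0.18, adjusted p = 0.59). Ndufa9, an accessory subunit near the quinone site, did not pass either (0.15 ± 0.14, adjusted p = 0.45).

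All 4 subunits of complex II passed in adult ISC relative to E13.5 Lgr5+ cells. They are Sdha, the flavoprotein that oxidises succinate, with a log2 fold change of 0.62 ± 0.17 (SE), Sdhb with 0.70 ± 0.14, and the membrane anchors Sdhc and Sdhd with 0.55 ± 0.15 and 0.64 ± 0.20. Sdhb was at 806, 818, 1016 and 957 CPM in adult ISC and at 532, 591, 639 and 575 CPM in E13.5 Lgr5+ cells, so the groups did not overlap. Sdha and Sdhd did overlap. Calls of Sdha and Sdhc were lost without E13.5 Lgr5+ replicate 4 (adjusted p 0.053 and 0.056), and that of Sdhd without any of 4 libraries (adjusted p up to 0.07): E13.5 Lgr5+ replicates 1 and 4 and adult ISC replicates 2 and 4. Sdhaf1, which inserts iron-sulphur clusters into Sdhb, had the largest fold of the members, from low counts: 2.98, 6.84, 7.97 and 9.91 CPM in adult ISC against 0.301, 1.07, 0.709 and 1.39 CPM (log2 fold change 3.07 ± 0.70 (SE), edgeR adjusted p = 0.0044). Sdhaf2, which attaches the flavin to Sdha, was at 84.8 CPM on average in adult ISC and 119 CPM at E13.5, with an adjusted p of 0.09.

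In complex III the small accessory subunits had the larger folds. Uqcrq was at 654, 659, 629 and 564 CPM in adult ISC against 219, 219, 159 and 163 CPM in E13.5 Lgr5+ cells (log2 fold change 1.81 ± 0.15 (SE), edgeR adjusted p = 2.6e-06). Uqcrh, the hinge protein at the cytochrome c site, was at 870.3, 1020.5, 662 and 658 CPM against 268, 288, 251 and 253 CPM (log2 fold change 1.69 ± 0.18 (SE), edgeR adjusted p = 2.2e-05). In both genes the lowest adult ISC library held more than the highest embryonic one. The core protein Uqcrc2 had 0.69 ± 0.12 (adjusted p = 0.00098). Uqcrc1 and the Rieske iron-sulphur protein Uqcrfs1 did not pass, at 0.47 ± 0.19 and 0.56 ± 0.23 with adjusted p of 0.07 and 0.08.

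Complex IV had the highest median fold. Cox4i1 was at 2952, 2558, 2217 and 2060.3 CPM in adult ISC and 965.24, 1384, 1094 and 1066 CPM in E13.5 Lgr5+ cells (log2 fold change 1.21 ± 0.17 (SE), edgeR adjusted p = 0.00015). Cox8a, the ubiquitous subunit 8, was at 605, 567, 331 and 328 CPM against 129, 171, 119 and 121 CPM (log2 fold change 1.86 ± 0.24 (SE), edgeR adjusted p = 7.9e-05). The groups did not overlap in either gene. Cox5a, which pairs with subunit 4, was at 361, 214, 105 and 46.2 CPM in adult ISC and 49.8, 57.5, 41.5 and 38.5 CPM at E13.5 (log2 fold change 2.05 ± 0.51 (SE), edgeR adjusted p = 0.0088). The adult libraries were spread widely, and adult ISC replicate 4 lay within the embryonic range. Without a filter on low counts its adjusted p was 0.063.

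The subunits with several paralogues moved in the same direction. Cox6a1, Cox6b1, Cox7a2 and Cox7b, the forms used in most tissues, had log2 fold changes of 1.56, 1.22, 1.25 and 1.39. Ndufa4, once counted to complex I and now known as a complex IV subunit, had 1.12, and Cox7a2l, which joins complexes III and IV into supercomplexes, had 1.07. Cox6b2, known as the testis form of subunit 6b, was higher as well, at 28.4, 40.1, 22.9 and 22.3 CPM in adult ISC against 8.04, 6.76, 9.47 and 9.42 CPM in E13.5 Lgr5+ cells (log2 fold change 1.85 ± 0.33 (SE), edgeR adjusted p = 0.00081). Cox7a1, the form of heart and skeletal muscle, averaged 5.09 CPM against 1.56 CPM, with an adjusted p of 0.047 that rose as high as 0.18 when 1 library was left out. That call was lost when any library was left out except adult ISC replicate 3. Markers of cardiac and skeletal muscle summed to 9.19 to 67.2 CPM in adult ISC and to 20.5 to 45.3 CPM in E13.5 Lgr5+ cells. Cox7c was the member of complex IV that did not pass (-0.23 ± 0.33, adjusted p = 0.62).

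In the ATP synthase 11 of 17 genes passed, and its large alpha and beta subunits were not among them. The alpha subunit Atp5a1 was at 1040.4, 1024, 1359 and 1386 CPM in adult ISC and 1300.3, 1704, 1216 and 1134 CPM in E13.5 Lgr5+ cells, and Atp5b at 1312, 1161, 1206 and 1103 CPM against 810.0, 1452, 912 and 975 CPM. Both overlapped between the groups and neither passed (-0.07 ± 0.15 and 0.29 ± 0.17, adjusted p 0.75 and 0.21). Atp5g1 and Atp5g3, which encode the same c-ring protein, had log2 fold changes of 1.28 ± 0.29 and 1.01 ± 0.18, and Atp5j, a subunit of the stalk, had 1.10 ± 0.16. Per kilobase of transcript, Atp5g1 made up 0.577 ± 0.052% of the summed Atp5g1 and Atp5g3 level in adult ISC and 0.506 ± 0.226% in E13.5 Lgr5+ cells (SD, n = 4 each).

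**Figure D2:**
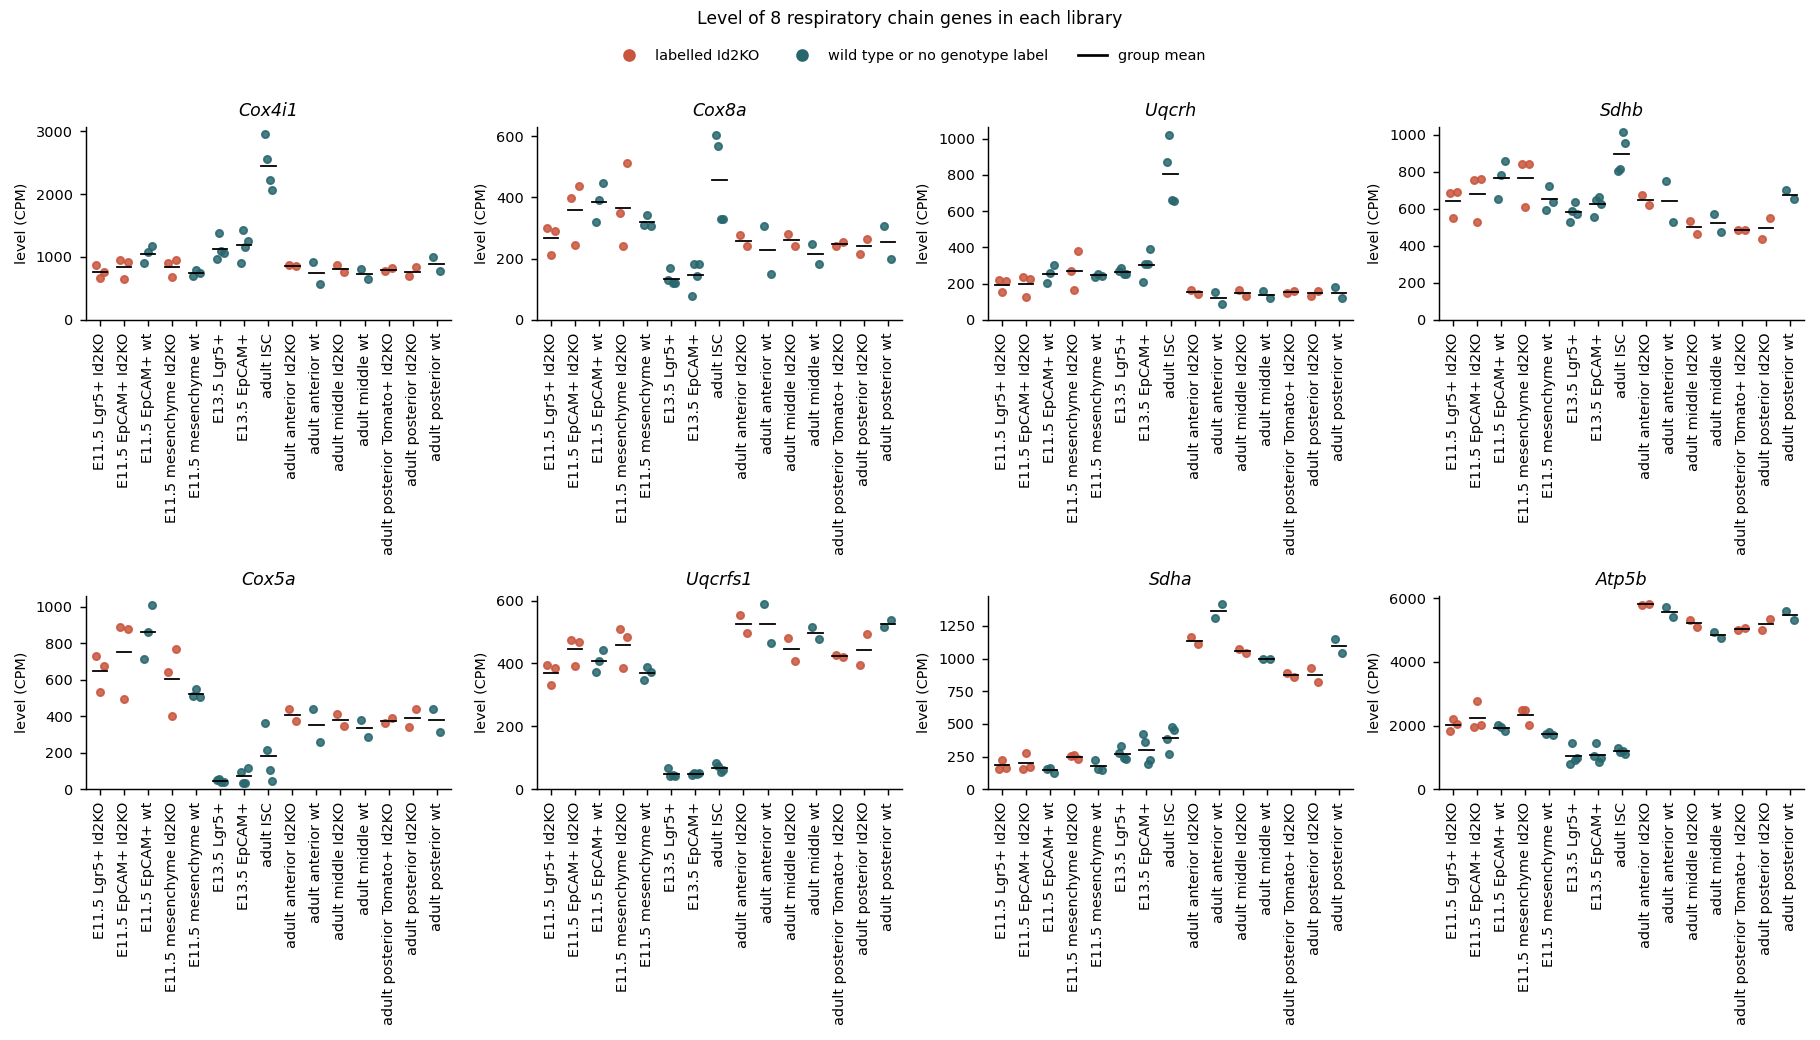
Level (CPM, linear axis) of 8 respiratory chain genes in every library, by group, with a line at the group mean. Cox4i1, Cox8a and Uqcrh are highest in adult ISC, Atp5b and Sdha are highest in the adult segments, and Cox5a and Uqcrfs1 are low in most E13.5 and adult ISC libraries and high at E11.5 and in the segments.

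Neighbouring pathways differed in direction in the same comparison. Glycolysis genes went the other way: 0 of 18 tested were higher and 14 lower in adult ISC than in E13.5 Lgr5+ cells, with a median of -1.62. Pkm, the last enzyme of glycolysis, had a log2 fold change of -3.27, Pfkl -3.00, the glucose carrier Slc2a1 -3.10 and lactate dehydrogenase Ldha -1.67. Of 12 tested genes of the hypoxia response, 6 were lower and 0 higher, led by Bnip3 (-6.26). Of 19 tricarboxylic acid cycle genes, 8 were higher and 0 lower (median 0.35), and of 15 genes of mitochondrial fatty acid oxidation 6 were higher and 0 lower, among them Cpt1a, which lets long fatty acids enter mitochondria (4.06).

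Lists of genes that build mitochondria are set here against the same background of 18.6% higher and 17.3% lower. Of 37 tested assembly factors of the chain, 8 were higher, a share near that background, and 1 lower (median 0.23). Among 20 electron carriers and partners of the chain, 11 were higher and 1 lower (median 0.64), with cytochrome c1 (Cyc1) at 1.45 and cytochrome c (Cycs) at 0.90. Among 18 regulators of mitochondrial biogenesis, 5 were higher and 0 lower (median 0.48): the coactivators Ppargc1a and Ppargc1b had log2 fold changes of 3.76 and 3.65, and the mitochondrial DNA packaging factor Tfam had 0.79. Proteins of the mitochondrial ribosome were higher in 26 and lower in 2 of 76 genes (median 0.32), and those of the cytosolic ribosome higher in 25 and lower in 1 of 78 (median 0.54). The respiratory chain median of 0.84 stood above all of these list medians.

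Several measurements moved with the same comparison, and their part in it was not tested. Most members have short transcripts: 54 of the 87 are 1000 nucleotides or less. Of 701 other tested genes with such short transcripts, 252 were higher and 79 lower in adult ISC (median 0.47), and of 5603 other genes over 3000 nucleotides 939 were higher and 1002 lower (median -0.04). Members with short transcripts were higher in 41 of 47 cases (median 0.95) and longer ones in 21 of 33 (median 0.62). Reads outside any gene made up 23.2 to 31.0% in adult ISC and 22.2 to 28.7% at E13.5. Mesenchyme markers summed to 4.33 to 6.49 CPM in adult ISC and to 372 to 529 CPM in E13.5 Lgr5+ cells, and Paneth cell markers to 540 to 891 CPM and to 0.273 to 2.81 CPM. Of the mesenchyme markers, Vim averaged 228 CPM over all E13.5 libraries and each of the others 15.2 CPM or less. Enterocyte markers summed to 1630 to 6420 CPM in adult ISC and 368 to 543 CPM in E13.5 Lgr5+ cells, with 6 of 10 higher and 0 lower. Leucocyte markers summed to 3830 to 11100 CPM in adult ISC and 6.92 to 23.3 CPM in E13.5 Lgr5+ cells. Of those 12 markers, Cd74 alone averaged 8000 CPM in adult ISC, the other 11 averaged 3.69 CPM or less, and the defining marker Ptprc averaged 0.07 CPM.

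The second set of adult Lgr5+ stem cells, from the wild-type segments, did not show the same direction. Set against the same E13.5 Lgr5+ libraries, 14 of 81 tested members were higher and 45 lower in the wild-type segments, against 28.9% and 35.5% of all 15177 tested genes, and the median was -0.64 (all genes -0.23). This comparison was added after the results were seen, and it shares the E13.5 libraries with the one above. Cox4i1 averaged 789.8 CPM in the wild-type segments and 1127 CPM in E13.5 Lgr5+ cells (log2 fold change -0.76 ± 0.16 (SE), edgeR adjusted p = 0.0007), where adult ISC stood at 2447 CPM. Cox7a2l averaged 65.4 CPM against 141 CPM (-1.36 ± 0.12). Sdha went up in both adult sets, and further in the segments, at 1152 CPM against 270.5 CPM (1.84 ± 0.15). Atp5b, which did not pass in adult ISC, averaged 5293 CPM in the wild-type segments against 1037 CPM (2.11 ± 0.15).

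The adult sets were therefore also compared with each other, although both were labelled as Lgr5+ stem cells of the small intestine at postnatal day 60. Of 81 tested members, 63 were higher and 10 lower in adult ISC than in the wild-type segments, against 30.0% and 22.3% of all 15177 tested genes, with a median of 1.64 over the members and 0.31 over all genes. Ndufa3, an accessory subunit of complex I, was at 312, 355, 266 and 255 CPM in adult ISC, against 47 and 24.3 CPM in the wild-type anterior, 41.9 and 32.1 CPM in the middle and 49.9 and 31.4 CPM in the posterior segment (log2 fold change 3.32 ± 0.21 (SE), edgeR adjusted p = 2.3e-09). Ndufa6 and Uqcrh had 3.22 ± 0.21 and 2.89 ± 0.20. The genes that were lower in adult ISC included Atp5b (-1.81 ± 0.15), Sdha (-1.21 ± 0.14), Uqcrfs1 (-2.57 ± 0.19) and Sdhaf1 (-2.54 ± 0.40). Across the 81 members, Spearman's rho between the log2 fold change and transcript length was -0.56, and over all 13442 tested genes with a known length it was 0.012. Both values describe genes that share the same libraries.

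In the same comparison of adult sets, members with short transcripts were higher in 44 and lower in 0 of 48 cases (median 1.91), and longer ones higher in 19 and lower in 10 of 33 (median 0.53). Other genes with short transcripts were higher in 523 and lower in 48 of 842 cases (median 1.77), so the short members lay close to other short genes. In the wild-type segments against E13.5 Lgr5+ cells, other short genes were higher in 148 and lower in 451 of 842 cases (median -1.22). There, members with short transcripts were higher in 2 and lower in 34 of 48 cases (median -0.899). Longer members were higher in 12 and lower in 11 of 33 (median 0.133), so the lower median of the members lay in the short ones. Reads outside any gene made up 23.2 to 31.0% in adult ISC and 7.12 to 9.35% in the segments, and reads aligned to several places 25.4 to 30.4% and 12.0 to 15.4%. The kind of sample and the library set cannot be told apart here. In the segments relative to E13.5 Lgr5+ cells, some lists had medians of the same sign as in adult ISC: glycolysis was higher in 2 and lower in 9 of 18 genes, the tricarboxylic acid cycle higher in 11 and lower in 2 of 19, and fatty acid oxidation higher in 10 and lower in 0 of 15, against 28.9% higher and 35.5% lower over all genes. So did the 18 regulators of biogenesis, with 9 higher and 4 lower (median 0.38). Other lists had medians of the opposite sign: assembly factors were higher in 11 and lower in 16 of 37 genes (-0.40), electron carriers and partners in 8 and 7 of 20 (-0.09), the mitochondrial ribosome in 14 and 53 of 76 (-0.92) and the cytosolic ribosome in 4 and 62 of 78 (-1.82). The regulators Ppargc1a and Ppargc1b were higher in the segments as well, by 2.47 and 3.15.

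**Figure D3:**
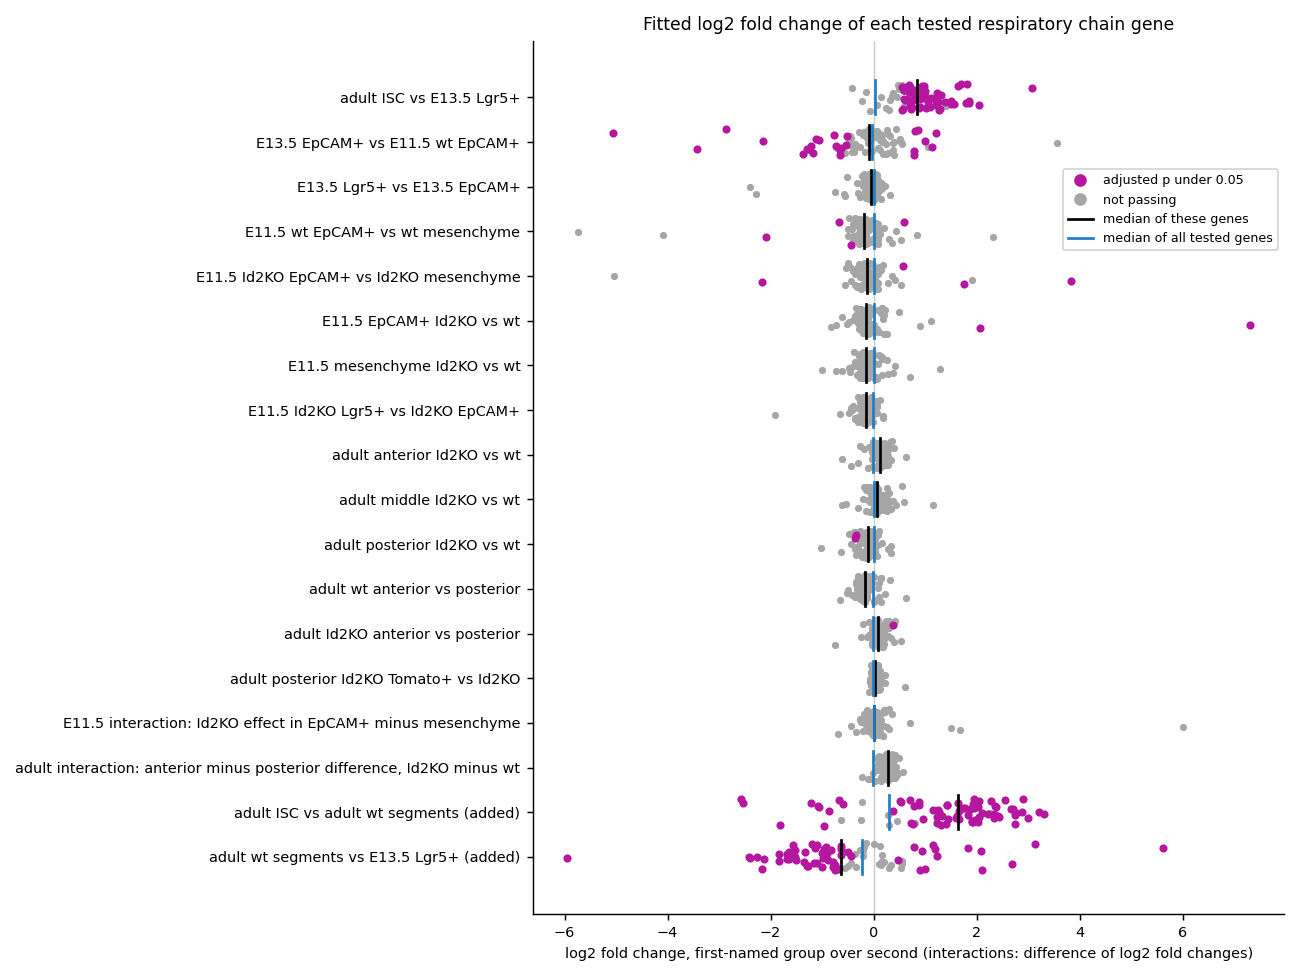
Fitted log2 fold change of each tested respiratory chain gene (points) in each comparison, first-named group over second, with the median of these genes (black line) and of all tested genes (blue line). The members lie to the right in adult ISC against E13.5 Lgr5+ (median 0.84) and to the left in the adult wild-type segments against the same E13.5 cells (median -0.64), while genotype comparisons lie near 0.

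Between E13.5 and E11.5 epithelium the genes that passed went both ways. Of 82 members tested, 7 were higher and 17 lower in E13.5 EpCAM+ cells than in E11.5 wild-type EpCAM+ cells (edgeR), against 19.3% and 21.1% of all 14467 tested genes, so the members' shares were near or below the background. The median was -0.09 over the members and -0.04 over all genes. Leaving out single libraries gave 7 to 14 members higher, with over 1.5 times the 7 without E11.5 wild-type EpCAM+ replicate 3 or E13.5 EpCAM+ replicate 1. DESeq2 called 11 higher and 18 lower.

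Among the genes that passed and had at least 5 CPM in a group, the largest falls were in 4 genes. Uqcrfs1 was at 44, 50.8, 47.7 and 52.3 CPM in E13.5 EpCAM+ cells and 372, 409 and 443 CPM in the wild-type E11.5 epithelium (log2 fold change -2.87 ± 0.16 (SE), edgeR adjusted p = 5.4e-08). Cox5a was at 93.3, 36.8, 36.6 and 114 CPM against 712, 863 and 1011 CPM (log2 fold change -3.42 ± 0.38 (SE), edgeR adjusted p = 1.8e-05). Ndufab1, the mitochondrial acyl carrier protein in complex I, was at 8.08, 6.3, 5.83 and 8.13 CPM against 31.4, 36.2 and 39.9 CPM (-2.14 ± 0.25). Sdhaf1 was at 0.456, 2.27, 0.767 and 1.57 CPM against 43.1, 43.9 and 56.5 CPM (-5.06 ± 0.45). None of the 4 overlapped between the stages. Uqcrfs1 was at 333 to 509 CPM in all E11.5 libraries, 41.6 to 69.2 CPM in all E13.5 libraries, 54.9 to 84.9 CPM in adult ISC and 394 to 588 CPM in all segments. It was thus low in the libraries with the most reads outside genes and high in the rest. Those reads made up 22.2 to 28.7% at E13.5, 12.0 to 22.1% at E11.5, 23.2 to 31.0% in adult ISC and 7.12 to 9.35% in the segments, and their part was not tested. None of the 50-base windows of Uqcrfs1 is shared with another gene. Ndufab1 held 21.55 to 39.9 CPM at E11.5 and 5.16 to 8.13 CPM at E13.5. It held 3.935 to 10.5 CPM in adult ISC and 14.6 to 24.4 CPM in the segments. Sdhaf1 held 28.7 to 56.5, 0.301 to 2.27, 2.98 to 9.91 and 39.6 to 61.2 CPM in the same order. Cox5a held 403 to 1011, 36.6 to 114, 46.2 to 361 and 259 to 442 CPM, where adult ISC overlapped the segments.

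Further genes were lower at E13.5: Cox5b (-1.30), Cox8a (-1.21), Cox7b (-0.74) and Cox6b1 (-0.63) of complex IV, and Atp5d (-1.36), Atp5g3 (-1.18) and Atp5b (-0.65) of the ATP synthase. Calls of Cox7b and Cox6b1 were lost without E11.5 wild-type EpCAM+ replicate 2 or 3 (adjusted p up to 0.11 and 0.12). Among the genes that were higher, Sdha was at 426, 360.1, 191 and 224 CPM in E13.5 EpCAM+ cells and 156, 163 and 127 CPM in the wild-type E11.5 epithelium (log2 fold change 1.21 ± 0.24 (SE), edgeR adjusted p = 0.0017). Ndufa9 was at 499, 549, 497 and 490.2 CPM against 279, 283 and 313 CPM (log2 fold change 0.996 ± 0.14 (SE), edgeR adjusted p = 0.00014). Cox7a2l, Uqcrc2, Sdhd, Atp5a1 and Atp5o had 1.13, 0.86, 0.81, 0.79 and 0.79. Thus the alpha subunit Atp5a1 and the beta subunit Atp5b of the ATP synthase both passed, in opposite directions.

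Cytochrome c1 (Cyc1), the partner of Uqcrfs1 in complex III, was lower at E13.5 too (68.7 CPM against 296 CPM, -1.91), as were the assembly factors Tmem70 (-2.79), Ndufaf6 (-4.07) and Cox18 (-3.21). Of all 37 tested assembly factors, 10 were higher and 6 lower, with a median of 0.20. In glycolysis 7 of 18 tested genes were higher and 5 lower. Other tested genes with short transcripts had a median of -0.29 and long ones of 0.13, and Spearman's rho between log2 fold change and transcript GC content was -0.30 over all tested genes and -0.06 over the members. Pools of embryos at E13.5 stand against single embryos at E11.5, so stage, pooling and library set cannot be told apart. Leucocyte markers summed to 13.9 to 15.1 CPM in E13.5 EpCAM+ cells and 102 to 930 CPM in the wild-type E11.5 epithelium, with 0 of 10 tested markers higher and 8 lower. Enterocyte markers summed to 1158 to 1413 CPM and 737 to 1119 CPM (5 of 9 higher, 2 lower), mesenchyme markers to 112 to 209 CPM and 226 to 262 CPM, and erythroid markers made up 0.000521 to 0.00117% and 0.0135 to 0.0172% of counts. Their part was not tested.

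Within the E13.5 epithelium, no member passed the test between Lgr5+ and EpCAM+ cells, in a fit that did not use the pairing of same-numbered libraries. Of 82 tested, 0 were higher and 0 lower (edgeR), against 0.794% and 0.958% of all 13355 genes; 0 had an unadjusted p under 0.05, and DESeq2 called 0 in either direction. The median was -0.04. The estimates left room for differences: Cox4i1 had -0.07 ± 0.16, Sdha -0.13 ± 0.22 and Cox5a -0.58 ± 0.34. Lgr5 itself was at 83.6 to 94.7 CPM in Lgr5+ cells and 21.4 to 24.8 CPM in EpCAM+ cells. Among the Id2KO cells at E11.5, Lgr5+ cells likewise had 0 of 83 members higher and 0 lower than EpCAM+ cells, against 1.58% and 1.56% of 15153 genes, with 1 member at an unadjusted p under 0.05 and 0 called by DESeq2. There the median was -0.14, and 8 of the 83 estimates were positive. That fit did not use the pairing either.

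Loss of Id2 in the E11.5 epithelium went with higher counts of Cox4i2 and Cox7b2, complex IV paralogues that are usually restricted to other tissues. Of 83 members tested, 2 were higher and 0 lower in Id2KO than in wild-type EpCAM+ cells (edgeR), against 0.871% and 0.785% of all 15153 genes. Here 5 had an unadjusted p under 0.05, and DESeq2 also called 2 higher and 0 lower. Cox4i2, the subunit 4 form known from lung and from low oxygen, was at 16.6, 13.3 and 20.5 CPM in Id2KO EpCAM+ cells and 3.14, 4.76 and 4.53 CPM in wild-type EpCAM+ cells (log2 fold change 2.06 ± 0.32 (SE), edgeR adjusted p = 0.0082). The lowest Id2KO library was above the highest wild-type one. Id2KO Lgr5+ cells, which have no wild-type counterpart here, held 11.3, 13.3 and 15.8 CPM. In mesenchyme it was at 5.07, 3 and 6.43 CPM with Id2 deleted and 3.67, 2.01 and 3.16 CPM in the wild type, which overlapped. Its fold in the epithelium was not shown to differ from that in mesenchyme, since the test of that difference called 0 members. Cox4i2 was at most 3.13 CPM at E13.5 and 0.064 CPM in adults.

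Cox4i2 stayed a small part of subunit 4. Per kilobase of transcript it made up 2.01 ± 0.23% of the summed Cox4i1 and Cox4i2 level in Id2KO EpCAM+ cells and 0.40 ± 0.05% in wild-type EpCAM+ cells (SD, n = 3 each). Cox4i1 itself did not pass (-0.28 ± 0.19, adjusted p = 0.61). Cox7b2, known as the testis form of subunit 7b, was at 2.09, 0.865 and 3.32 CPM in Id2KO EpCAM+ cells and 0, 0 and 0.0293 CPM in wild-type EpCAM+ cells. Summed over the libraries these were 224 counts against 1 count, a ratio of 211 per total count with an exact 95% interval of 37.5 to 8370 that covers counting error only. Its edgeR adjusted p was 0.026. That call was lost, with adjusted p up to 0.11, without Id2KO EpCAM+ replicate 3 or without any of the 3 wild-type EpCAM+ libraries, and at 0.077 when the 2 groups were fitted alone. Id2KO Lgr5+ cells held 1.54, 1.26 and 1.33 CPM of Cox7b2, so it was present in all 6 Id2KO epithelial libraries. Lgr5+ and EpCAM+ libraries of the same number count as pairs, so these 6 are not independent. In mesenchyme Cox7b2 averaged 1.01 CPM per kilobase of transcript with Id2 deleted and 0.314 in the wild type. In EpCAM+ cells these means were 3.855 and 0.018.

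Markers of other cells were compared beside these counts. Markers of cardiac and skeletal muscle summed to 43.6 to 238 CPM in the Id2KO epithelium, against 26.9 to 34.1 CPM in the wild-type one, mesenchyme markers to 66.9 to 170 CPM and 226 to 262 CPM, endothelial markers to 2.26 to 9.68 CPM and 3.48 to 56.9 CPM, and leucocyte markers to 5.92 to 1010 CPM and 102 to 930 CPM. Their part in the Cox4i2 and Cox7b2 values was not tested. The common form Cox7b was at 289, 153 and 268 CPM in the Id2KO epithelium, against 334, 397 and 479 CPM in the wild-type one, without overlap, but it did not pass (-0.72 ± 0.26, adjusted p = 0.24). In mesenchyme it was at 241, 173 and 356 CPM with Id2 deleted and 399, 405 and 393 CPM without (-0.99 ± 0.29, adjusted p = 0.22). Among glycolysis genes, hexokinase Hk2 was lower in Id2KO EpCAM+ cells (61.4 CPM against 120.1 CPM, -0.93) and the glucose carrier Slc2a3 higher (1.25).

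**Figure D4:**
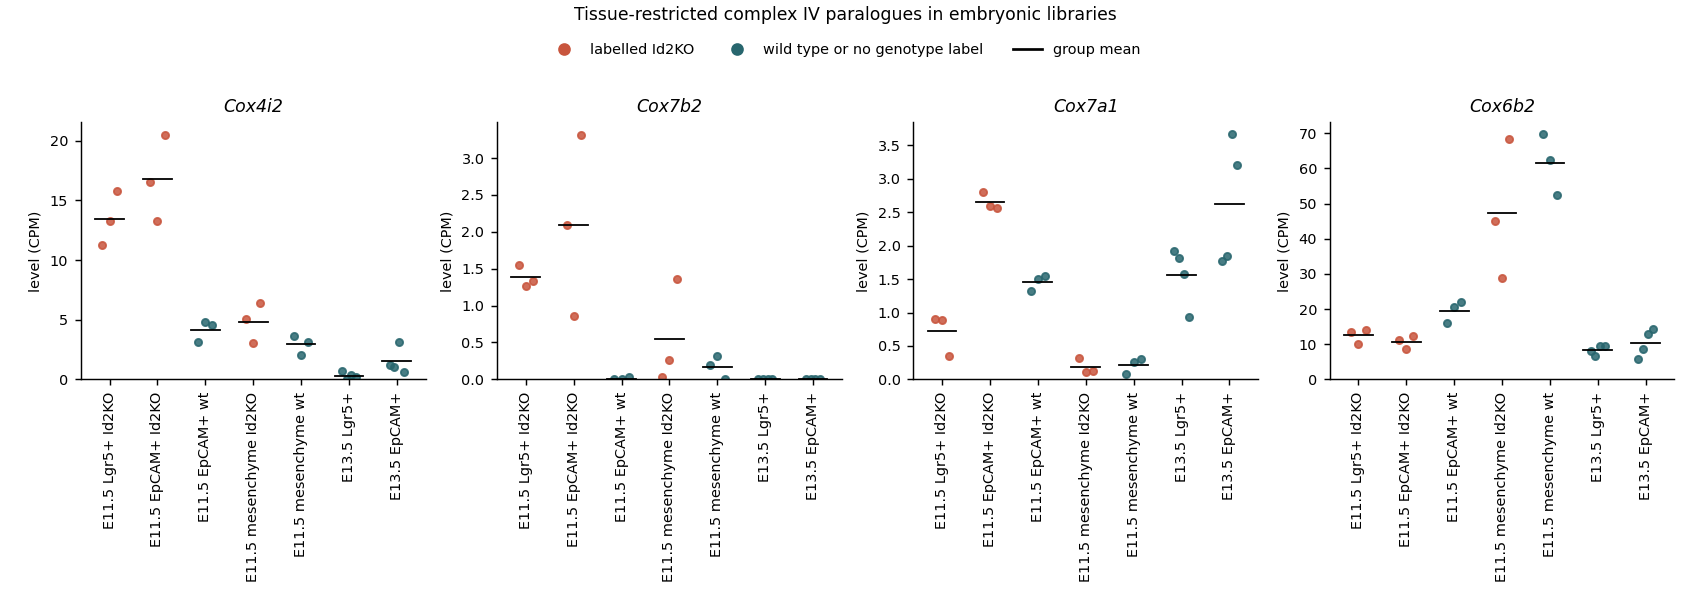
Level (CPM, linear axes that differ between panels) of 4 complex IV paralogues in the embryonic libraries, with a line at the group mean. Cox4i2 and Cox7b2 are highest in the Id2KO EpCAM+ and Lgr5+ groups at E11.5, and Cox6b2 is highest in mesenchyme of both genotypes.

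In E11.5 mesenchyme, 0 of 83 members were higher and 0 lower in Id2KO than in wild type (edgeR), against 0.0574% and 0.644% of all 15680 genes, with 2 members at an unadjusted p under 0.05 and 1 called lower by DESeq2. The difference of the Id2KO effect between EpCAM+ cells and mesenchyme was past the threshold in 0 members, against 0.421% and 0.172% of genes; 2 members had an unadjusted p under 0.05 and DESeq2 called 0. Erythroid markers took 2.48 to 5.97% of counts in Id2KO and 22.2 to 26.9% in wild-type mesenchyme.

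Epithelium and mesenchyme at E11.5 differed in their level of Cox6b2. Cox6b2 was at 16, 20.5 and 22.1 CPM in wild-type EpCAM+ cells and 69.9, 62.5 and 52.6 CPM in wild-type mesenchyme (log2 fold change -2.08 ± 0.32 (SE), edgeR adjusted p = 0.00027). In Id2KO it was at 11.3, 8.67 and 12.2 CPM in EpCAM+ cells and 44.9, 29 and 68.3 CPM in mesenchyme (log2 fold change -2.17 ± 0.32 (SE), edgeR adjusted p = 0.00018). The groups did not overlap in either genotype. Erythroid markers took 22.2 to 26.9% of counts in wild-type and 2.48 to 5.97% in Id2KO mesenchyme, but at most 0.0172% in EpCAM+ cells. Their part in the Cox6b2 values was not tested. Per kilobase, Cox6b2 made up 3.84 ± 0.08% of the summed Cox6b1 and Cox6b2 level in wild-type EpCAM+ cells and 13.4 ± 1.2% in wild-type mesenchyme, and 2.59 ± 0.49% and 9.997 ± 0.361% in the Id2KO pair (SD, n = 3 each). In all, 1 of 83 members was higher and 3 lower in wild-type EpCAM+ cells than in wild-type mesenchyme, against 11.5% and 10.7% of 15680 genes, and 3 were higher and 1 lower in the Id2KO pair, against 13.2% and 10.8%. These shares are below the background of each comparison. Leaving out single libraries left 0 to 1 higher and 1 to 2 lower in the wild-type pair, and 1 to 3 higher and 1 to 2 lower in the Id2KO pair.

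The other called genes of these pairs were less stable. Sdhaf2 was higher in EpCAM+ cells than in mesenchyme in both genotypes, at 0.59 ± 0.16 in wild type and 0.57 ± 0.16 in Id2KO (adjusted p 0.017 and 0.02), and each call was lost without any of 4 libraries. In wild type those were EpCAM+ replicates 2 and 3 and mesenchyme replicates 1 and 3 (adjusted p up to 0.08). In Id2KO they were EpCAM+ replicates 1 and 3 and mesenchyme replicates 1 and 2 (up to 0.096). Sdha and Atp5a1 were lower in wild-type EpCAM+ cells (-0.67 ± 0.21 and -0.43 ± 0.14) although their CPM values overlapped, at 156, 163 and 127 CPM against 225, 155 and 145 CPM for Sdha and 879.5, 899.7 and 875 CPM against 899, 901 and 860.3 CPM for Atp5a1. The folds are after TMM scaling, while erythroid markers took 22.2 to 26.9% of the counts behind the CPM of wild-type mesenchyme. The call of Sdha was lost without any wild-type library except mesenchyme replicate 3 (adjusted p up to 0.19), and that of Atp5a1 without any of the 6 (up to 0.13).

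In the Id2KO pair, Cox7a1 was at 2.8, 2.59 and 2.57 CPM in EpCAM+ cells and 0.315, 0.103 and 0.118 CPM in mesenchyme (log2 fold change 3.83 ± 1.09 (SE), edgeR adjusted p = 0.02). With same-numbered libraries as pairs, fitted alone, its adjusted p was 0.076 and that of Sdhaf2 0.06, and 1 member was higher and 3 were lower. Cox7a1 was also lost without EpCAM+ replicate 1 or mesenchyme replicate 2 or 3 (adjusted p up to 0.069). Cox4i2 was higher in Id2KO EpCAM+ cells than in Id2KO mesenchyme (1.76 ± 0.46, adjusted p = 0.013), a call lost without EpCAM+ replicate 3 (0.06). Ndufa4l2, the paralogue of Ndufa4 known to respond to low oxygen, varied within mesenchyme groups, at 12.3, 18 and 0.0295 CPM in the Id2KO group, against 2.49, 0 and 15.6 CPM in the wild-type group, so no difference could be read from it.

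In the adult segments labelled Id2KO or wild type, few members passed, and so did few of all tested genes. In the anterior and middle segments, 0 of 80 were higher and 0 lower in libraries labelled Id2KO (edgeR), against 0.804% and 0.7% of all 13436 genes anteriorly and 1.63% and 2.28% in the middle; 3 and 1 members had an unadjusted p under 0.05, and DESeq2 called 0 in both segments. In the posterior segment 0 were higher and 2 lower, against 2.55% and 2.6% of genes, so the share called lower was near the background. Among the 2 was Sdha, at 928 and 819 CPM in libraries labelled Id2KO and 1147 and 1045 CPM in wild type (log2 fold change -0.35 ± 0.09 (SE), edgeR adjusted p = 0.044). Its values did not overlap between the groups, each of 2 libraries. Leaving out single libraries gave a median over the members of -0.317 to 0.124 there, where it was -0.116 with all of them. The call of Sdha was lost without any of the 4 libraries (adjusted p up to 0.23). DESeq2 called 9 lower, without a share over all genes to set beside it. Enterocyte markers summed to 1491 and 1374 CPM in posterior libraries labelled Id2KO, against 2044 and 2504 CPM in wild type, and leucocyte markers to 7.43 and 6.96 CPM against 2302 and 2028 CPM. Of the leucocyte markers, Cd74 averaged 602 CPM over all segment libraries and each of the others 1.21 CPM or less. The part of these markers was not tested.

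Along the gut, edgeR called 1 member, Sdha, in libraries labelled Id2KO and 0 in wild type. It was at 1162 and 1110.4 CPM in anterior and 928 and 819 CPM in posterior libraries labelled Id2KO (log2 fold change 0.39 ± 0.09 (SE), edgeR adjusted p = 0.047). There 1 of 80 members was higher and 0 lower, against 0.968% and 1.03% of genes, so the share called higher was near the background. The call of Sdha was lost without either anterior library or posterior replicate 2, with a block for replicate number (adjusted p 0.051) and with the compared groups alone (0.21). Here 12 members had an unadjusted p under 0.05, and DESeq2 called 5 higher. Enterocyte markers summed to 3028 and 2144 CPM in these anterior libraries and 1491 and 1374 CPM in the posterior ones, and their part was not tested. In wild type 0 of 80 members were higher and 0 lower in the anterior than in the posterior segment, against 3.03% and 1.78% of genes, with 2 members at an unadjusted p under 0.05 and 1 called higher by DESeq2. Leaving out wild-type anterior replicate 1 left 1 library in that group. In that case the median of the members was -0.66, where it was -0.18 with both libraries. The difference between the anterior-to-posterior effects of the Id2KO and wild-type labels had a median of 0.27 over the members and -0.01 over all genes. It was 0.271 over other genes with short transcripts and -0.276 over those with long ones. Members had nearly the same median whether their transcripts were short (0.273 over 47) or longer (0.268 over 33). In 76 of 80 members the estimate was positive but 0 passed, against 0.171% and 0.149% of genes (5 at an unadjusted p under 0.05, 0 by DESeq2). The members' median ran from 0.002 to 0.754 when single libraries were left out. Tomato+ cells and the other posterior cells labelled Id2KO differed in 0 of 80 members, against 0.0% of genes in either direction, with 0 at an unadjusted p under 0.05 and 0 by DESeq2.

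Cox7b had lower mean counts in each segment labelled Id2KO but passed in none. It was at 169.99 and 139 CPM in anterior libraries labelled Id2KO and 327 and 150.4 CPM in wild type, 170.4 and 136 CPM and 246 and 186 CPM in the middle, and 130.1 and 165 CPM and 370.0 and 221 CPM posteriorly. The log2 fold changes were -0.62 ± 0.32, -0.53 ± 0.32 and -1.02 ± 0.32, with adjusted p of 0.43, 0.42 and 0.1. The anterior groups overlapped and the others did not.

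Libraries of the same group differed in the median over the members. The median log2 deviation of the members from their group mean ran from -0.42 to 0.384 over the 41 libraries. The median deviation of other genes with short transcripts lay within 0.092 of it in each library. The Id2KO libraries numbered 2 at E11.5 were the lowest of their groups, with summed member levels of 20401 CPM in EpCAM+ cells, 20086 CPM in Lgr5+ cells and 21234 CPM in mesenchyme. Their deviations were -0.42, -0.257 and -0.408 for the members and -0.395, -0.218 and -0.363 for other short genes. In the wild-type anterior segment, replicate 2 held 24776 CPM and replicate 1 held 31503 CPM. Leaving out replicate 1 of that pair gave a members' median of 0.606 for the anterior libraries labelled Id2KO against wild type, where it was 0.132 with both.

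**Figure D5:**
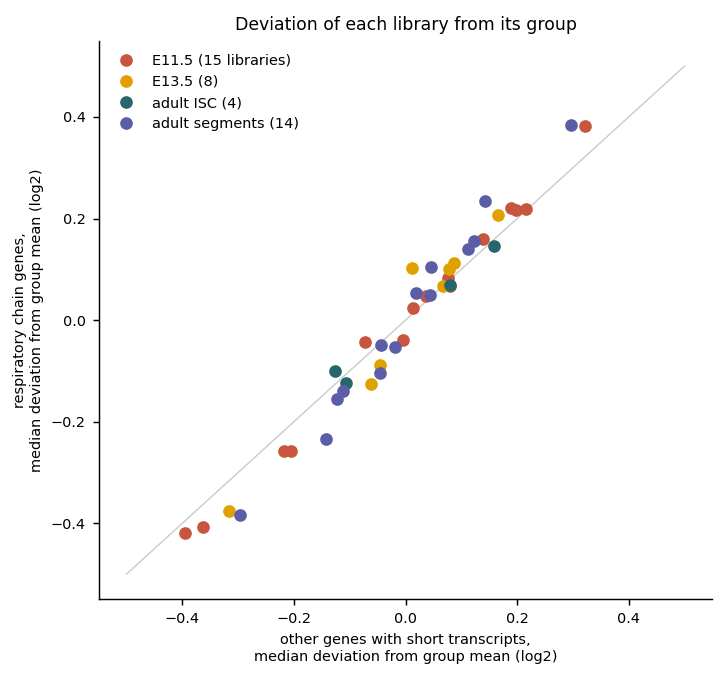
Median log2 deviation of the respiratory chain genes from their group mean (vertical) against that of other genes with transcripts of 1000 nucleotides or less (horizontal), 1 point per library, with the line of equal values. The points lie along the line in all 4 sets of libraries, within 0.092 of it.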

How the data were processed

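Poly(A) RNA of 250 sorted cells per library was sequenced as single-end reads of 50 bp. The deposited files hold raw counts per gene symbol; per the submitters' processing notes, bcl2fastq 1.8.4, STAR 2.3.1z13, SAMtools 1.2, HTSeq 0.6.1p1, DESeq2 1.6.3 and assembly mm9 were used. Their roles, the annotation and strand use are not given in the sources used here, so paralogues, pseudogenes and overlapping genes may share reads. The 5 category rows were left out of library sizes and tests; reads without a gene made up 7.12 to 31.0% and non-unique ones 12.0 to 30.4%. Levels are CPM over gene counts; a value after ± is an SE for a fold change and an SD for a share. Differences were tested in R 4.3.3 with edgeR 4.0.16, which calls limma 3.58.1 (filterByExpr, TMM, robust quasi-likelihood, Benjamini-Hochberg over all tested genes, threshold 0.05), checked on simulated counts. The 2 comparisons with E13.5 EpCAM+ cells, and adult ISC against E13.5 Lgr5+, used the compared groups; E11.5 epithelial groups, E11.5 EpCAM+ and mesenchyme groups, and adult segments were each fitted together; adult ISC, wild-type segments and E13.5 Lgr5+ shared a fit. Alternatives were RLE size factors, DESeq2 1.42.0, no filter, a block for replicate number, fits of the compared groups without the rest, and omission of each library. Where 1 library was left in an arm, it was assumed to vary like the others.

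Members, gene lists and tests were chosen with earlier results of these data known. Named genes were Id2 and Lgr5, up to 4 called members with the largest rise and fall and at least 5 CPM in a group, the paralogue families and complex II; others were chosen after their values were seen, and results for some genes are not reported here. Transcript length, GC content and shared 50-base windows came from the reference annotation by symbol. All 40 replicate pairs were checked for copied files, and 0 were identical. Same-numbered libraries counted as pairs where a comparison held 3 or more pairs and all their deviations correlated above 0.1: E13.5 Lgr5+ and EpCAM+ (0.112 to 0.49), Id2KO EpCAM+ and mesenchyme (0.18 to 0.447), and Id2KO Lgr5+ and EpCAM+ (0.282 to 0.548). The main fits of these comparisons used the group alone, without the pairs.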

Additional observations from a re-analysis of the deposited data

Results flagged for a closer look

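In 6 of 107 groups of 4 libraries tested for a library that stands apart by the Dixon ratio, 1 library did so. Chance gives about 1 such group in 20. ATP synthase genes summed to 7920 CPM in E13.5 Lgr5+ replicate 2, where the other 3 libraries held 6260 to 6440 CPM. Sdhaf2 was at 136 CPM in the same library, against 112 to 114 CPM in the others. In E13.5 Lgr5+ replicate 1, Uqcrfs1 was at 69.2 CPM (others 41.6 to 44.7 CPM) and Ndufa7 at 429 CPM (others 305 to 320 CPM). Ndufa9 was at 549 CPM in E13.5 EpCAM+ replicate 2, where the others held 490 to 499 CPM. Sdhd was at 522 CPM in adult ISC replicate 1, below 915 to 956 CPM in the others.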

How the results depend on the processing

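Adult pairs are named by label. Pairing by replicate number was tried as a block in each comparison. It gave 26 members lower, against 17, in E13.5 EpCAM+ over E11.5 wild type, and 0 higher, against 1, in anterior over posterior segments labelled Id2KO; the numbers do not pair the libraries in the E13.5 comparison, and the adult one has 2 pairs where the rule needs 3. In Id2KO EpCAM+ cells over Id2KO mesenchyme, the block with the compared groups alone gave 1 higher and 3 lower (without the block, 3 and 1). With wild-type segments in place of adult ISC, 14 members were higher and 45 lower than in E13.5 Lgr5+. The estimate changed sign in 7 of the genes followed under this alternative: Cox6b2 (-1.15), Cox4i1 (-0.76), Cox6b1 (-0.44), Cox7a2 (-0.80), Cox7a2l (-1.36), Ndufa4 (-0.98) and Sdhb (-0.18). Of these, Cox6b1 and Sdhb did not pass there. Others named above, such as Ndufv2 (-0.97) and Uqcrh (-1.19), were lower there too. DESeq2 gave 11 higher for E13.5 EpCAM+ over E11.5, 3 higher for wild-type EpCAM+ over mesenchyme, 1 lower for Id2KO over wild-type mesenchyme, 9 lower for posterior Id2KO over wild type, 1 higher for wild-type anterior over posterior and 5 higher for the same pair labelled Id2KO. Without a filter on low counts, anterior Id2KO over wild type had 1 lower, the middle pair 1 higher and 1 lower, the posterior pair 6 lower, and anterior over posterior Id2KO 3 higher. The compared groups alone gave 1 higher for E11.5 Id2KO over wild-type EpCAM+, 1 lower for the posterior pair and 0 higher for anterior over posterior Id2KO. The summed member level of wild-type EpCAM+ cells over mesenchyme had a log2 ratio of 0.268, which became -0.16 after TMM scaling and -0.137 with erythroid markers left out of the total. The cause was not tested. RLE size factors changed no count of members by over 1.5 times. Shares of all genes called under these alternatives are not given, so these counts have no background beside them. Leaving out single libraries gave 52 to 65 higher and 0 to 1 lower in adult ISC over E13.5 Lgr5+. For E13.5 over E11.5 it gave 7 to 14 higher. EpCAM+ over mesenchyme had 0 to 1 higher and 1 to 2 lower in wild type. The Id2KO pair of these tissues had 1 to 3 higher and 1 to 2 lower. Id2KO over wild-type EpCAM+ had 1 to 2 higher. In the adult segments it left 1 library in a group, so no counts are given for them here.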
